A study of Homo sapiens with 7 samples.

Results

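The mitochondrial import machinery and its partner chaperones and proteases were examined here as a set of 35 nuclear genes, among 19974 protein-coding genes on chromosomes 1 to 22 and X. The set was listed by name: 24 genes for subunits and helpers of protein import, and 11 for chaperones and proteases of the matrix, inner membrane and intermembrane space. It was not chosen by a measured value, but it was listed with earlier results of these data known. All 35 symbols matched the RefSeq gene table. A gene was called open in a library when a deposited region of accessible chromatin lay within 1000 bp of either end of the gene.

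Most mitochondrial proteins are made in the cytosol and enter through the TOM complex of the outer membrane. Carrier proteins then pass with the small TIM chaperones to the TIM22 complex, while proteins with a cleavable presequence pass through the TIM23 complex and are pulled inside by a motor built around mortalin, a process that uses the membrane potential and ATP. In the matrix, chaperones fold the arriving proteins, and ATP-dependent proteases remove those that are damaged or unassembled, a task of known importance in long-lived neurons.

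Accessible chromatin was mapped by ATAC-seq, an assay that uses the Tn5 transposase to cut and tag open DNA. The cells were LUHMES, an established cell line from human mesencephalon that can be turned into neurons. All cells were wild type and had been differentiated for 6 days with tetracycline, dibutyryl cAMP and GDNF, and they are labelled as dopaminergic neurons. Treated cells were exposed for 8 hours to 25 µM antimycin A, which blocks complex III of the respiratory chain, and 10 µM oligomycin, which blocks the ATP synthase, and gave 4 libraries from differentiations 6, 7, 8 and 9. The vehicle cells received DMSO and gave 3 libraries from differentiations 6, 7 and 8. The differentiations are described as independent batches of 1 cell line, so the spread between libraries covers batches and not donors.

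The deposited lists differed in length. They held 188516, 248900, 55533 and 53063 regions in treated 6, 7, 8 and 9, against 53398, 32828 and 159902 regions in vehicle 6, 7 and 8. Equal-size lists therefore kept the 32828 regions of highest fold enrichment in each library, and a region's rank counts from 1 at the highest fold. Read totals were not at hand, so depth is known only in relative terms. The background pileup recovered from the deposited folds, a measure of relative depth, was 0.816 to 5.99 in treated libraries and 0.492 to 1.43 in vehicle libraries, and it was lowest in vehicle 6 and 7. Of 10 dopaminergic markers, 4 were open in each treated equal-size list, against 4 to 5 in vehicle lists. Of the 10, EN1, NR4A2 and PITX3 were open in all 7 libraries, and SLC6A3 in 4 treated and 2 vehicle equal-size lists. LMX1A and FOXA2 were each open in 0 treated and 1 vehicle equal-size lists, and TH, SLC18A2, DDC and LMX1B in none. As deposited, TH, which defines dopamine synthesis, was in 3 treated and 0 vehicle lists and SLC18A2 in 4 and 1. DDC and LMX1B were each in 1 and 0 deposited lists, LMX1A in 2 and 2 and FOXA2 in 3 and 2. Markers of all neurons were open for 7 of 8 genes in each treated list and 6 to 7 of 8 in vehicle lists. Progenitor markers numbered 4 to 5 of 6 in treated lists and 2 to 5 of 6 in vehicle lists. Glial markers numbered 2 to 5 of 8 in treated lists and 1 to 4 of 8 in vehicle lists, with GFAP and AIF1 in no list. OLIG2 was open in 4 treated and 3 vehicle equal-size lists, and MBP in 4 and 2. Mesenchymal and endothelial markers numbered 3 to 4 of 8 in treated lists and 1 to 2 of 8 in vehicle lists, with COL1A2, PECAM1 and VWF in no list. TWIST1 was open in 4 treated and 3 vehicle equal-size lists, PRRX1 in 4 and 2, PDGFRB in 4 and 0 and COL1A1 in 3 and 0. The part of these marker shifts and of the depth in the values given from here on was not tested. In bulk chromatin, fewer cells of a type and less accessibility per cell cannot be told apart.

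RefSeq promoters on GRCh38.p14, from 250 bases before the gene start to 50 bases from it on, were at hand for 31 of the 35 members; GRPEL1, TOMM5, TIMM8B and CLPP are named only. The 8 shown are those of members described library by library in the results, taken from the role groups in turn: members that were missing from some lists, members whose ranks did not overlap between conditions, and TOMM70, which had the strongest regions. Their positions are chr22:38681707-38682006 (TOMM22, plus strand), chr19:2427537-2427836 (TIMM13, minus), chr19:10928561-10928860 (TIMM29, plus) and chr19:39480588-39480887 (TIMM50, plus). The others are chr13:43023336-43023635 (DNAJC15, plus), chr16:4425618-4425917 (DNAJA3, plus), chr16:89508138-89508437 (SPG7, plus) and chr3:100401040-100401339 (TOMM70, minus). Each runs 5′ to 3′ along its gene, and capitals mark every match on either strand to the 9 motifs named in the next paragraph.
TOMM22: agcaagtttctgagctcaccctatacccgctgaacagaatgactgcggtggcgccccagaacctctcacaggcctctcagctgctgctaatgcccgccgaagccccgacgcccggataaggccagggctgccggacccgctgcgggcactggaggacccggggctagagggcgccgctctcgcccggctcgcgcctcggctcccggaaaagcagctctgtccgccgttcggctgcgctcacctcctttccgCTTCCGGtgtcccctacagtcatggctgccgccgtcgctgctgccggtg
TIMM13: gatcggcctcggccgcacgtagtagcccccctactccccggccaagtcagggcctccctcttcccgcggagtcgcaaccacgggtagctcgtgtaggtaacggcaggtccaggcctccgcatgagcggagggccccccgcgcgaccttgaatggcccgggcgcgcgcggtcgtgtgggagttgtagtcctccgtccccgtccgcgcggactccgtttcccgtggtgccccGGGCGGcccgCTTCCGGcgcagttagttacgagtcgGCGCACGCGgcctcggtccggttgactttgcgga
TIMM29: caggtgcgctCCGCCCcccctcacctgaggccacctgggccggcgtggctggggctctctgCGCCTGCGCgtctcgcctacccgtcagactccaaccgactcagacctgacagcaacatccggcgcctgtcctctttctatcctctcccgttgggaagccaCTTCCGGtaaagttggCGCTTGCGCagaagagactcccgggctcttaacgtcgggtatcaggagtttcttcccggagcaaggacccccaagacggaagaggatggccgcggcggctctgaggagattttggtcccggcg
TIMM50: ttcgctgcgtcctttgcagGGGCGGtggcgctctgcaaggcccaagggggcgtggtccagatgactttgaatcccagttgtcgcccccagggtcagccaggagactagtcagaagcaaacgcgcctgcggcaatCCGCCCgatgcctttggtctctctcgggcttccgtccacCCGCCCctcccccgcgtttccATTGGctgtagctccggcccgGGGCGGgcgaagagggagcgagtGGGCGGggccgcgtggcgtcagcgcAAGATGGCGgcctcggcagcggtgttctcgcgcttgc
DNAJC15: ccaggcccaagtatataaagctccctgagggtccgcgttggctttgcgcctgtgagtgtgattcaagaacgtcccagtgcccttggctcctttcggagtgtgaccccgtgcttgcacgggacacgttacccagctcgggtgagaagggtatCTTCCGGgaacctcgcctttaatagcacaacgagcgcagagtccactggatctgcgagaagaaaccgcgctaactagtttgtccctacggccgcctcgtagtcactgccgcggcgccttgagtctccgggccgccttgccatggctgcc
DNAJA3: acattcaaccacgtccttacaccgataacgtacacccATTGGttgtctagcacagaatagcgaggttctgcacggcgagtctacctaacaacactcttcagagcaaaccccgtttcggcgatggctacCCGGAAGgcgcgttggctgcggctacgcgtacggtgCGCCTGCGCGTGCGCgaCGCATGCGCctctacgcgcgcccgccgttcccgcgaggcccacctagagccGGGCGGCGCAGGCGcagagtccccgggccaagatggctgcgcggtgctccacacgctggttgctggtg
SPG7: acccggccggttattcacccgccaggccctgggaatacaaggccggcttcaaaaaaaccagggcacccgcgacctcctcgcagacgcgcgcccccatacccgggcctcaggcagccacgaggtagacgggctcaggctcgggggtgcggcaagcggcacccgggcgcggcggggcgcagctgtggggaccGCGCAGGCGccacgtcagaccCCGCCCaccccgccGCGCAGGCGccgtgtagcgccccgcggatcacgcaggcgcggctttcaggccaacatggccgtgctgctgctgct
TOMM70: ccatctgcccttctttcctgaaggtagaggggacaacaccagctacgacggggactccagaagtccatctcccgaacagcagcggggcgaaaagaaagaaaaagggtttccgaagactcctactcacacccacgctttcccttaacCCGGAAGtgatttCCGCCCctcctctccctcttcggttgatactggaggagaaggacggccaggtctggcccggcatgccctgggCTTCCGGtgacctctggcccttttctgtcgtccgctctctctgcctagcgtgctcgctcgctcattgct

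The 9 motifs searched on both strands were ETS (CCGGAAG), NRF1 (GCGCANGCG), YY1 (AANATGGCG), NFY (CCAAT), SP1 (GGGCGG), the heat shock element (GAANNTTC), ATF4-C/EBP (TGATGNAA), CRE (TGACGTCA) and the E-box (CACGTG). Matches of SP1 and NRF1 can overlap, as at the end of the DNAJA3 promoter. The ETS letters, bound by factors such as GABP that serve many genes of the respiratory chain, were in 12 of the 31 members (38.7%), against 14.1% of all 15812 protein-coding promoters and 20.3% of the 7790 promoters of genes open in all 7 equal-size lists. They were in 11 of 21 import promoters, including TOMM22, TIMM13, TIMM29, DNAJC15 and TOMM70, and in 1 of 10 chaperone and protease promoters, that of DNAJA3. The NRF1 letters, named for nuclear respiratory factor 1, were in 15 members (48.4%), against 11.1% of all promoters and 15.6% of those open in all 7 lists. They were in 9 of 21 import promoters and 6 of 10 chaperone and protease promoters, among which HSPD1 and HSPE1 share their match because their windows overlap. SPG7 held 2 copies and DNAJA3 held 4.

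SP1 was in 71.0% of members, against 58.3% of all promoters and 71.5% of those open in all 7 lists. NFY was in 29.0% of members, against 36.4% and 40.1%, and YY1 in 6.45%, against 4.79% and 6.91%. The E-box was in 16.1% of members (5 genes, HSPD1 and HSPE1 among them), against 8.82% and 10.4%. Among motifs of stress-responsive factors, the heat shock element was in 0 of the 31 members, against 5.57% of all promoters. The ATF4-C/EBP letters were in 1 member, TIMM22, against 2.52% of all promoters, and the CRE letters in 1 member, TRAP1, against 2.56%. Members' promoters had a median GC content of 65.3%, against 62.7% for all promoters. A match describes letters only; neither binding nor the use of any of these sequences was measured here.

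Nearly all members were open in both conditions. In the equal-size lists 35, 34, 34 and 33 members were open in treated 6, 7, 8 and 9, against 32, 32 and 33 in vehicle 6, 7 and 8. The lowest treated library thus equalled the highest vehicle library, and the others did not overlap. The means were 34.0 ± 0.816 members (97.1%) in treated libraries and 32.3 ± 0.577 members (92.4%) in vehicle libraries (SD, n = 4 and 3), a difference of 1.67 members. Over all protein-coding genes the shares were 62.4% ± 1.92 in treated lists and 56.1% ± 2.57 in vehicle lists, so genes at large were also open more often in the treated lists.

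As deposited, 35, 35, 35 and 34 members were open in treated 6 to 9, against 33, 32 and 35 in vehicle 6 to 8. The difference of means was 1.42 members, and vehicle 8, whose list is long, had every member open. Mean shares of members were 99.3% in treated and 95.2% in vehicle libraries, against 73.1% and 63.6% of all protein-coding genes. The gain was 4.05 percentage points for members and 9.53 points for genes at large. With 95.2% of members already open in vehicle libraries, a gain of 9.53 points was not possible for them, so these gains cannot be compared. With only regions of −log10 q of at least 5, the counts were 35, 35, 32 and 31 in treated libraries and 27, 27 and 35 in vehicle libraries. There the 3 libraries with long lists, treated 6, treated 7 and vehicle 8, kept all 35 members, and the shorter lists had fewer in either condition.

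**Figure D1:**
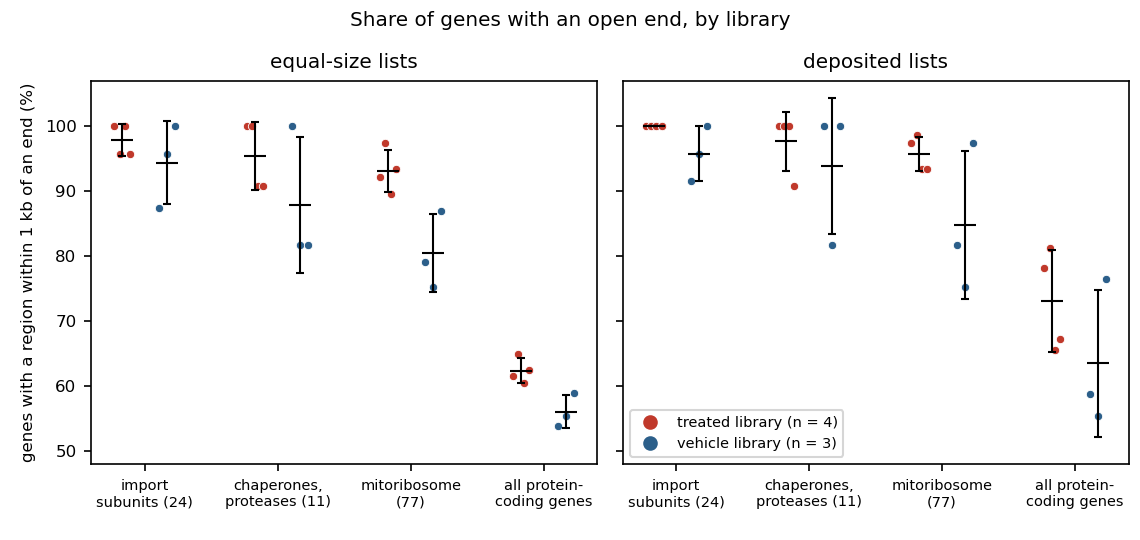
Share of genes with a region within 1 kb of an end (y axis, percent, not starting at 0) in each library, for import subunits, chaperones and proteases, mitochondrial ribosomal proteins and all protein-coding genes, treated left of vehicle; bars are means with SD (n = 4 and 3). In every library the points of the members lie above that of all genes, and in the equal-size lists vehicle means are below treated means in all 4 sets.

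Of the 35 members, 30 were open in all 7 equal-size lists, against 66.1% of the 14055 genes open in at least 1 of them, and 31 in all 7 deposited lists, against 59.2% of 16788 genes. A larger share of treated than of vehicle equal-size lists held 5 members, TOMM22, TIMM13, DNAJC15, CLPP and CLPX, against 27.5% of genes. The opposite was seen for 0 members, against 6.48% of genes. In the deposited lists 4 members had a larger share in treated libraries, against 35.0% of genes. No member was open in 4 of 4 treated and 0 of 3 vehicle lists, a pattern held by 0.818% of genes (115 genes). Each library left out takes away 1 condition of this pattern, so the number can only rise, which says nothing about its stability. It was 385, 214 and 182 without vehicle 8, 7 and 6. It was 203, 128, 197 and 159 without treated 6, 7, 8 and 9, and 572 without the 3 libraries of long lists. Fisher's exact test of presence cannot go below p = 0.0286 with 4 libraries against 3. Of the genes tested, 118 reached that p, none of them a member, and after Benjamini-Hochberg adjustment 0 genes passed 0.05.

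Import subunits and the chaperones and proteases were compared as groups, without a test, since the members were listed with results known. In the equal-size lists 24, 23, 24 and 23 of 24 import subunits were open in treated 6 to 9, against 21, 23 and 24 in vehicle 6 to 8. Of the 11 chaperones and proteases, 11, 11, 10 and 10 were open in treated libraries, against 11, 9 and 9 in vehicle libraries. The treated libraries overlapped the vehicle libraries for either group. Either group gained 0.83 genes on average in treated libraries, which is a larger share of 11 genes than of 24. The treated minus vehicle gain of the import share, less that of the chaperone and protease share, was −4.10 percentage points, with a spread between libraries of 11.4 points. Without vehicle 8 that difference was 1.70, and without the 3 libraries of long lists it was 6.25, so its direction depended on the libraries used.

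The 5 members that were not open everywhere included a receptor, a small chaperone, a motor subunit and both parts of a protease. There were 12 cases of a member missing from an equal-size list and 6 of a member missing from a deposited list. Of the 12, 6 fell in vehicle 6 and 7, the libraries with the lowest recovered background, and of the 6, 5 fell there, the other being CLPP in treated 9. Some cases lay close to the limit of rank 32828. DNAJC15 in treated 7 ranked 33323 and CLPX in vehicle 8 ranked 33411, just outside, while DNAJC15 in treated 8 ranked 32712, just inside.

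TOMM22 (chr22:38681957-38685421), the central receptor of the TOM complex that also holds the complex together, had its strongest region at rank 31015, 23294 and 25025 in treated 6, 7 and 8 and at 38867, outside the equal-size list, in treated 9. In vehicle 8 the rank was 24516, and in vehicle 6 and 7 no region lay at either end. The gene was thus in all 4 treated deposited lists and 1 of 3 vehicle lists, always with a weak region. Its summit lay within 135 bp of the start in all 5 libraries, at the promoter shown above with an ETS match.

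CLPX (chr15:65148219-65185342), the unfoldase that feeds the ClpP peptidase, had ranks of 21869, 15055, 6710 and 23259 in treated 6 to 9. In vehicle 6 the rank was 28038, in vehicle 8 it was 33411, outside the equal-size list, and vehicle 7 had no region. All 4 treated ranks were nearer the top than any vehicle rank. The summits lay 125, 77 and 113 bp inside the gene in treated 6, 7 and 8 and 135 bp before it in treated 9, whereas they lay 721 and 756 bp inside the gene in vehicle 6 and 8. The vehicle 6 region did not cover the start, while the vehicle 8 region, 1281 bp wide, did.

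CLPP (chr19:6361531-6370242), the peptidase that CLPX serves, had ranks of 29514 and 19920 in treated 6 and 7, 44360 in treated 8 and no region in treated 9. In vehicle 6 the rank was 16311, in vehicle 8 it was 56916, and vehicle 7 had no region. Its best rank was in a vehicle library, and the groups overlapped, unlike those of CLPX. Presence in equal-size lists was 2 of 4 treated and 1 of 3 vehicle libraries.

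TIMM13 (chr19:2425625-2427586), a small TIM chaperone, had ranks of 17603, 8587, 15521 and 15272 in treated 6 to 9, against 7954 and 29644 in vehicle 7 and 8. In vehicle 6 its only region lay at the far end of the gene, 1822 bp from the start, at rank 41127. The ranks overlapped, with the highest and the lowest both in vehicle libraries. The region of TIMM13 also reached LMNB2 and TMPRSS9 in most libraries. DNAJC15 (chr13:43023586-43114213), a J protein of the import motor, had ranks of 22128, 33323, 32712 and 27870 in treated 6 to 9, against 29980 and 25333 in vehicle 7 and 8 and no region in vehicle 6. Its ranks also overlapped, and none was nearer the top than 22128.

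**Figure D2:**
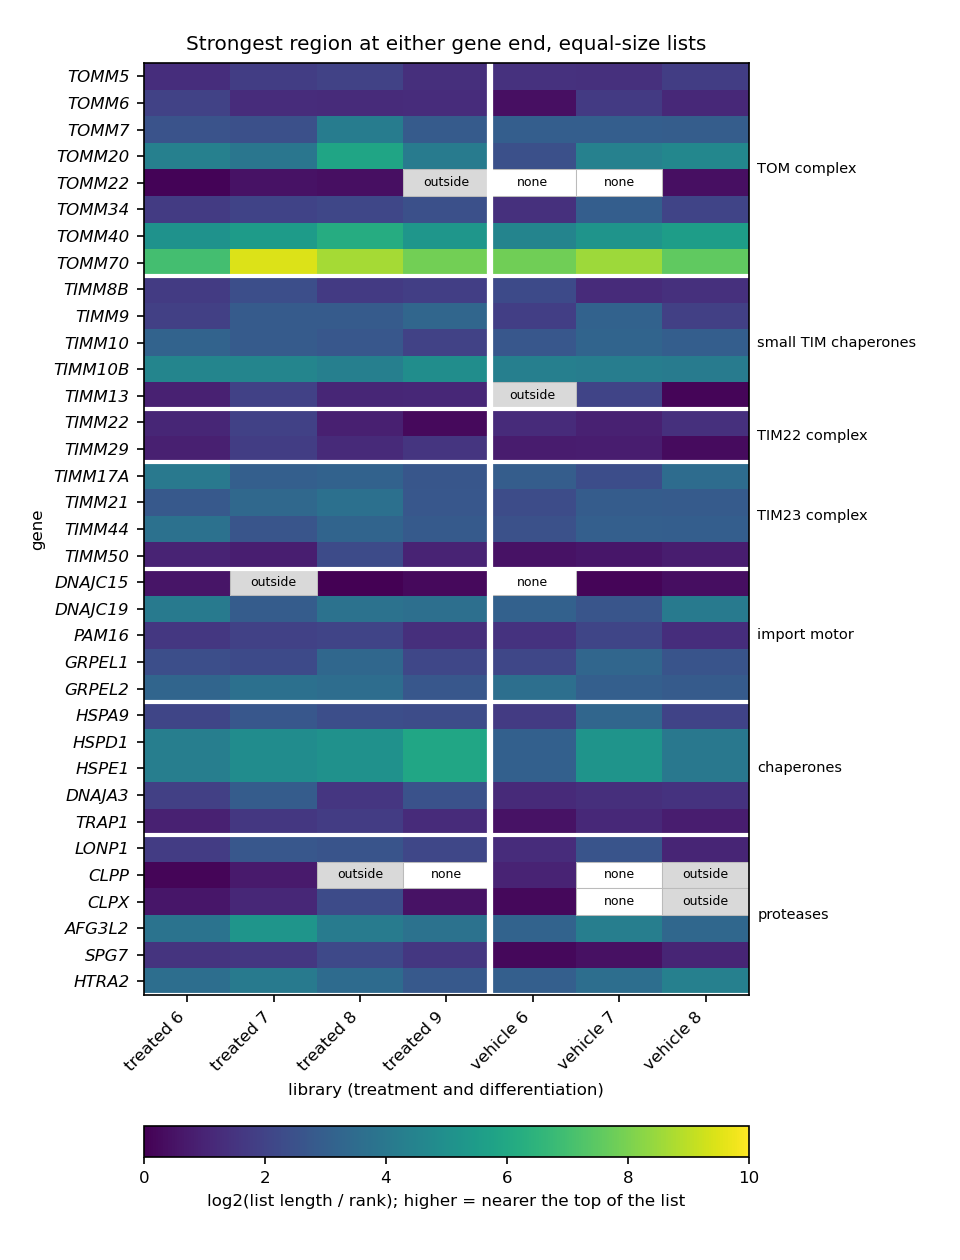
Strongest region at either end of each of the 35 members (rows, by role) in the 7 libraries (columns, treated left of vehicle), as log2(list length / rank) in equal-size lists; grey cells mark a region outside the equal-size list and white cells no region. TOMM70 is brightest in all 7 libraries, and the 12 cells without a value fall on TOMM22, TIMM13, DNAJC15, CLPP and CLPX.

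The strength of the region at each member was compared as log2(list length / rank), a log2 scale on which higher values are nearer the top of the list. The 30 members open in all 7 equal-size lists were tested with limma together with all 9284 such genes. After Benjamini-Hochberg adjustment no member passed 0.05; 7 genes (0.0754%) were nearer the top in treated libraries and 2 genes (0.0215%) in vehicle libraries. At an unadjusted p under 0.05 the test took 3 members, SPG7, DNAJA3 and TIMM29, all nearer the top in treated libraries, against 9.51% of genes, and 0 members the other way, against 1.95%. The smallest adjusted p of a member was 0.200. A median difference of 0.34 was found over the members, of which 25 of 30 were above 0, beside a median of 0.24 over all genes, of which 66.4% were above 0.

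Ranks of 5 members did not overlap between the conditions, with all treated libraries nearer the top: CLPX, DNAJA3, SPG7, TIMM29 and TIMM50, against 9.53% of the 14055 genes. The opposite held for 0 members, against 1.62% of genes. Of the 5, 3 belong to the 11 chaperones and proteases and 2 to the 24 import subunits. The median difference was 0.29 over 21 import subunits, 17 of them above 0, and 0.66 over 9 chaperones and proteases, 8 of them above 0; the difference between these groups was not tested.

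**Figure D3:**
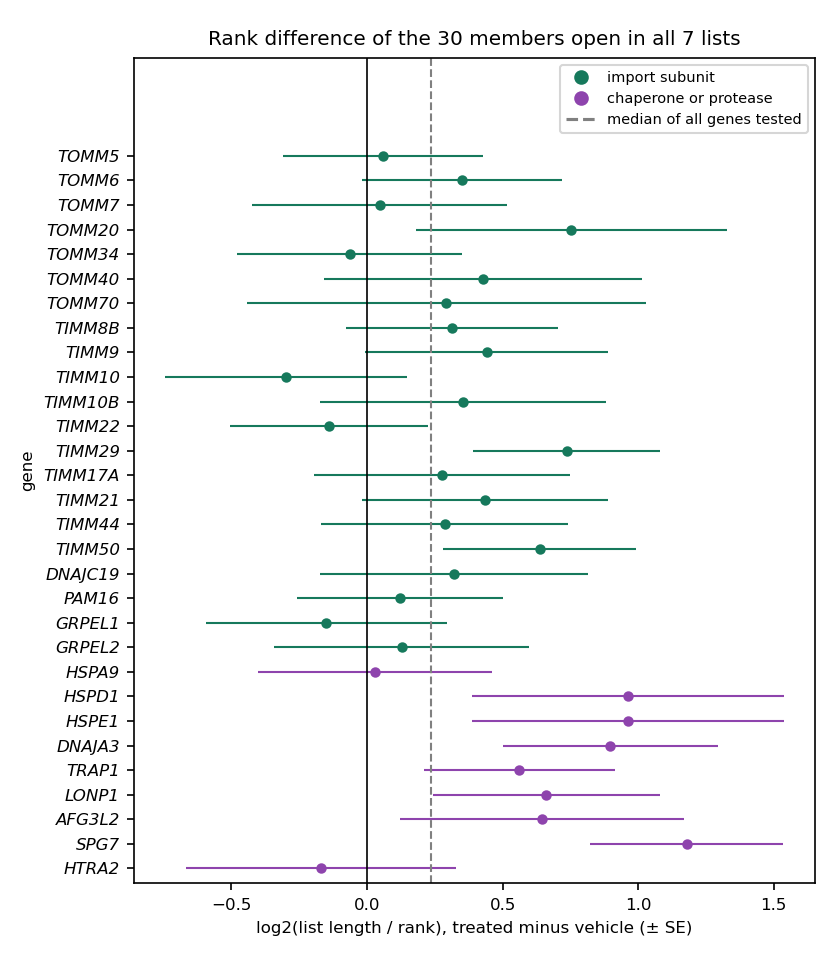
Difference in log2(list length / rank), treated minus vehicle (x axis), for the 30 members open in all 7 equal-size lists (y axis, by role); points are limma estimates, lines are ± SE, and the dashed line is the median of all genes tested (0.24). SPG7 lies farthest to the right at 1.18, and TOMM34, TIMM10, TIMM22, GRPEL1 and HTRA2 lie below 0.

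Among the TOM genes, TOMM70, the receptor for carrier precursors, had the strongest regions of all members. Its ranks were 253, 46, 82 and 139 in treated 6 to 9, against 145, 89 and 176 in vehicle 6 to 8, and the groups overlapped. The deposited folds at its summit were 24.4 to 61.6 in treated libraries and 27.3 to 65.3 in vehicle libraries. The difference was 0.29 (SE 0.74, adjusted p = 0.892 in limma), with −0.11 without treated 7 and 0.71 without treated 6. Its region also reached LNP1 in most libraries, and its promoter holds ETS matches on either strand.

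TOMM40, the channel, ranked 446 to 958 in treated libraries and 687 to 1431 in vehicle libraries. TOMM20, the presequence receptor, ranked 555 to 2143 in treated libraries and 1312 to 5974 in vehicle libraries. The small subunits TOMM5, TOMM6 and TOMM7 and the cytosolic co-chaperone TOMM34 ranked between 1767 and 13835 in treated libraries and between 4106 and 24689 in vehicle libraries. Differences of these 6 genes ran from −0.06 (TOMM34) to 0.75 (TOMM20), each overlapping between conditions, and the smallest adjusted p among TOM genes was 0.623.

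Among the small TIM chaperones, TIMM10B, whose region also reached ARFIP2 in every library, had the strongest region. Its ranks were 1383, 1387, 1665 and 1084 in treated 6 to 9, against 1631, 1757 and 1844 in vehicle 6 to 8. Only treated 8 lay within the vehicle range, and the difference was 0.35 (SE 0.53, adjusted p = 0.816). TIMM9 and TIMM10 ranked between 3299 and 8742 in treated libraries and between 3489 and 9032 in vehicle libraries, TIMM8B between 6158 and 10143 in treated libraries and between 6973 and 14178 in vehicle libraries, with overlap for each.

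TIMM29, a subunit of the TIM22 carrier translocase, had ranks of 18075, 9312, 14355 and 11289 in treated 6 to 9, against 19364, 19080 and 26553 in vehicle 6 to 8. No treated rank fell within the vehicle range, although treated 6 was close to it. The difference was 0.74 (SE 0.35, adjusted p = 0.407), and 0.58 to 0.90 over 18 alternatives. Its region also reached an end of YIPF2, so the value belongs to either gene. TIMM22, the channel of the same complex, had ranks of 15398, 8655, 17841 and 27809 in treated 6 to 9, against 14076, 17254 and 12690 in vehicle 6 to 8. The lowest and the highest rank were both in treated libraries, and the difference was −0.14 (SE 0.36, adjusted p = 0.895), with −0.44 to 0.12 when 1 library was left out (0.12 without treated 9, −0.44 without treated 7). It was −0.68 with the recovered background as a covariate and −0.52 without the 3 libraries of long lists.

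In the TIM23 complex, TIMM50, the presequence receptor facing the intermembrane space, had ranks of 16510, 18469, 6810 and 16402 in treated 6 to 9, against 23608, 21428 and 18606 in vehicle 6 to 8. The groups did not overlap, but treated 7 and vehicle 8 were close and treated 8 stood apart. The difference was 0.64 (SE 0.36, adjusted p = 0.498), with 0.30 without treated 8, 1.04 with the recovered background as a covariate and 1.09 without the 3 libraries of long lists. TIMM17A, a core subunit, had ranks of 1998, 3980, 3670 and 5167 in treated 6 to 9, against 4251, 6404 and 2803 in vehicle 6 to 8, with overlap and a difference of 0.28 (SE 0.47, adjusted p = 0.842), with −0.022 without vehicle 7 and 0.57 without vehicle 8. TIMM21 and TIMM44, which link the complex to the respiratory chain and to the motor, ranked between 2449 and 5286 in treated libraries and between 4054 and 6549 in vehicle libraries.

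In the import motor, DNAJC19, a J protein that stimulates mortalin, had ranks of 1948, 4416, 2407 and 2583 in treated 6 to 9, against 3800, 5312 and 1910 in vehicle 6 to 8. The groups overlapped, with a difference of 0.32 (SE 0.49, adjusted p = 0.824), with −0.0055 without vehicle 7, 0.73 without vehicle 8 and 0.85 without the 3 libraries of long lists. Its relative DNAJC15 was far weaker in every library, as given above. PAM16, which holds the J protein in check, and the nucleotide exchange factors GRPEL1 and GRPEL2 had differences of 0.12, −0.15 and 0.13, with overlap for each.

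Among the chaperones, HSPD1 and HSPE1, the chaperonin and its lid, lie head to head and shared 1 region, so that their values are 1 measurement, although every count and median over members given here includes each of them. Its ranks were 1677, 1122, 995 and 540 in treated 6 to 9, against 3962, 908 and 2073 in vehicle 6 to 8. Vehicle 7 lay among the treated libraries, and the difference was 0.96 (SE 0.57, adjusted p = 0.531), with 0.45 without vehicle 6 and 1.52 without vehicle 7. HSPA9, which encodes mortalin, ranked 7703, 4935, 6221 and 6642 in treated libraries, against 9767, 3317 and 8175 in vehicle libraries, with a difference of 0.03. The treated values of HSPA9 all lay inside the vehicle range.

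DNAJA3, a J protein that works with mortalin on folding, had ranks of 8805, 4325, 11082 and 5660 in treated 6 to 9, against 14336, 12783 and 12051 in vehicle 6 to 8. All treated libraries were nearer the top, and the level was 2.23 ± 0.61 in treated libraries and 1.33 ± 0.13 in vehicle libraries (SD, n = 4 and 3). The difference of 0.90 (SE 0.40) had an adjusted p of 0.382, and it was 0.41 with the recovered background as a covariate. Regions were 1313, 1716, 1068 and 1002 bp wide in treated libraries, against 431, 779 and 1239 bp in vehicle libraries. A further region inside the gene body was in the equal-size lists of all 4 treated libraries and of vehicle 7 and 8. TRAP1, a mitochondrial chaperone of the HSP90 family, ranked 17573, 10799, 9492 and 13989 in treated libraries, against 23346, 14718 and 18712 in vehicle libraries, with a difference of 0.56 (SE 0.35, adjusted p = 0.549) and overlap through treated 6.

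Among the proteases, SPG7 (paraplegin), a subunit of the m-AAA protease of the inner membrane whose loss causes a hereditary spastic paraplegia, differed most. Its ranks were 11609, 10533, 7036 and 10772 in treated 6 to 9, against 27988, 24283 and 16134 in vehicle 6 to 8, and no library overlapped. The level was 1.74 ± 0.33 in treated libraries and 0.56 ± 0.41 in vehicle libraries (SD, n = 4 and 3). The difference of 1.18 (SE 0.36) did not pass adjustment (adjusted p = 0.200). It ran from 1.01 to 1.58 over 17 alternatives, with adjusted p from 0.172 to 0.544 in limma. The value of 1.58 came without the 3 libraries of long lists. Since no ranks overlapped, leaving libraries out could not bring the difference below 0, and those runs say nothing about its direction. Ranking by −log10 p, a wider window, the summit in the window and the gene start only left it at 1.18. With the recovered background as a covariate, where the sign was free to change, it was 1.20.

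The regions at SPG7 also differed in extent. They were 1690, 1835, 1283 and 2009 bp wide in treated 6 to 9, against 650, 166 and 1541 bp in vehicle 6 to 8, and vehicle 8 alone of the vehicle libraries lay among the treated ones. The gene start was covered in all 4 treated libraries and in vehicle 8, while the summits in vehicle 6 and 7 lay 430 and 606 bp before it. Median widths over the whole equal-size lists were 916, 1450, 484 and 740 bp in treated 6 to 9 and 475, 319 and 868 bp in vehicle 6 to 8. The part of list width in the extents at SPG7 was not tested. The promoter shown above holds 2 NRF1 matches within 60 bases before the start, a stretch that the regions of the 4 treated libraries and vehicle 8 covered.

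**Figure D4:**
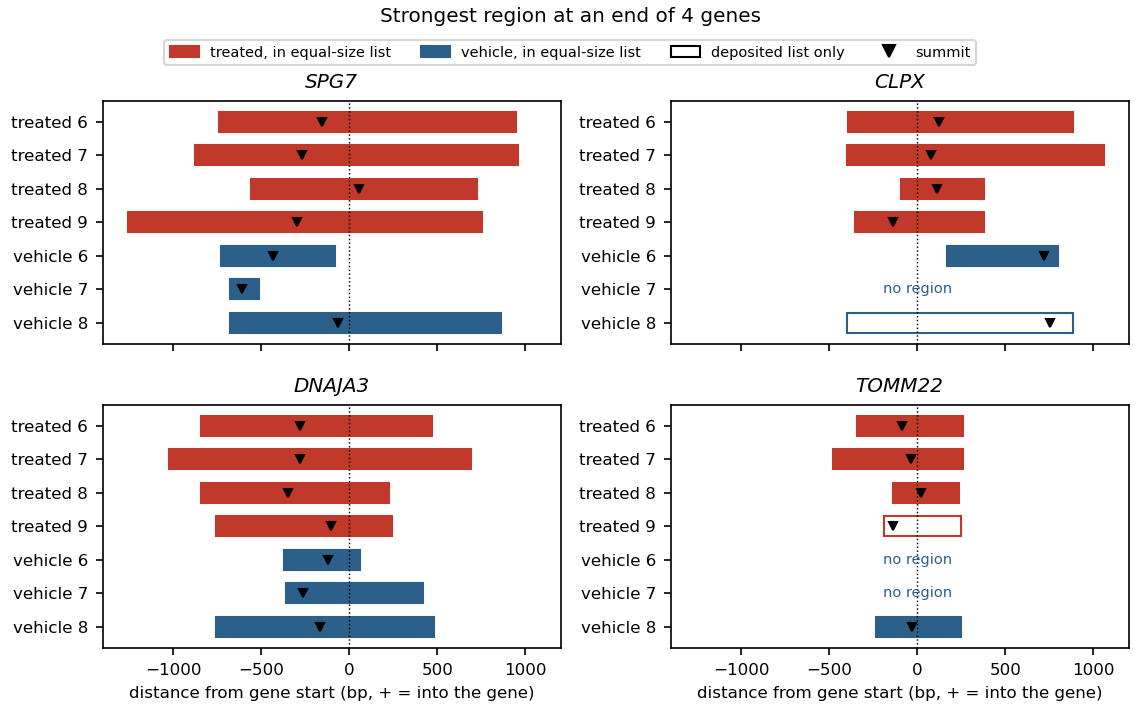
Extent (bars) and summit (triangles) of the strongest region at SPG7, CLPX, DNAJA3 and TOMM22 in each library (rows, treated above vehicle), as distance in bp from the gene start (x axis, positive into the gene); open bars are regions outside the equal-size list. SPG7 regions cover the start in the 4 treated libraries and vehicle 8, and TOMM22 has no region in vehicle 6 and 7.

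AFG3L2, the partner of paraplegin, had ranks of 2313, 880, 1829 and 2413 in treated 6 to 9, against 3641, 1691 and 3227 in vehicle 6 to 8. The groups overlapped through vehicle 7, and the difference was 0.65 (SE 0.52, adjusted p = 0.647). It was 0.32 without treated 7, 0.99 without vehicle 7, 0.25 with the recovered background as a covariate and 0.24 without the 3 libraries of long lists. LONP1, the main protease of the matrix, ranked 9532, 4989, 5484 and 7540 in treated libraries, against 13475, 5356 and 16162 in vehicle libraries, with a difference of 0.66 (SE 0.42, adjusted p = 0.553). HTRA2, a protease of the intermembrane space, ranked 1945 to 4801 in treated libraries and 1610 to 3997 in vehicle libraries, with a difference of −0.17. Regions of LONP1 and HTRA2 also reached CATSPERD and AUP1. In all, 12 members, 8 of them import subunits, shared their region with the end of another protein-coding gene in at least 4 libraries. By library, 34.3% to 39.4% of open members shared their region, against 29.8% to 31.8% of all open genes.

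The members' regions sat at gene starts. Of members with a known start, the strongest region covered it for 100%, 100%, 96.8% and 96.7% in treated 6 to 9, against 92.9%, 79.3% and 100% in vehicle 6 to 8. Over all protein-coding genes these shares were 87.9%, 90.0%, 78.5% and 83.6% in treated libraries and 80.0%, 71.5% and 87.8% in vehicle libraries, lowest in vehicle 7 in either set. The median of the members' median ranks was 6642, against 9733 over all genes open in an equal-size list, including genes open in few lists. By library, median ranks of open members were 8279, 5137.5, 5244.5 and 6114 in treated 6 to 9. They were 7266.5, 4286 and 7897 in vehicle 6 to 8. Over all open genes they were 8035, 7450, 7603.5 and 7841 in treated libraries and 7803, 7642.5 and 8432 in vehicle libraries. Members were thus nearer the top in every library except treated 6.

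Further genes of the pathway were listed by name as well. Of 34 genes, 31.8 ± 1.89 were open in treated and 30.7 ± 2.31 in vehicle equal-size lists (SD, n = 4 and 3), and 27 were open in all 7 lists. MTX3 was open in 4 treated and 1 vehicle lists, and SAMM50, which inserts barrel proteins into the outer membrane, in 4 treated and 2 vehicle lists; 5 genes in all had a larger share in treated lists and 1, DNAJC11, in vehicle lists. TIMM23, the channel of the presequence translocase, was open in 2 treated and 1 vehicle lists, and PMPCA, of the processing peptidase, in none. In the limma test 0 of the 27 passed an adjusted p of 0.05, with a median difference of 0.17, below the 0.24 of all genes, and 18 of 27 above 0. Of 77 mitochondrial ribosomal proteins, 71.8 ± 2.50 (93.2%) were open in treated lists and 62.0 ± 4.58 (80.5%) in vehicle lists. In that list 0 of 53 genes passed the adjusted p.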

How the data were processed

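The deposited files are peak lists, 1 per library, made with MACS2, per the file headers. The submitters' processing notes name FastQC, Bowtie2, Picard and hg38, with no versions. Caller settings, which would change region width and number, and any shift of reads for the Tn5 offset were not given in the sources used here. DNA was amplified in 2 rounds of 9 PCR cycles, per the labels' protocols. For each region the authors deposited a score, a fold enrichment over background as a ratio, a −log10 p-value and a −log10 q-value, all from the caller; the largest deposited q was 0.0384.

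From these lists, regions on chromosomes 1 to 22 and X were kept, ranked by fold (the −log10 p gave the same ranks) and cut to 32828 per library. Folds were used only as ranks, since background differs between libraries. With a tolerance of 0.02, 100% of folds gave a whole summit pileup, from which the background was recovered. Gene ends came from RefSeq on GRCh38.p14. Presence was tested with Fisher's exact test and ranks with limma 3.58.1 (trend), each adjusted by the Benjamini-Hochberg method over all genes tested. The rank script was tested on simulated data. Tools were Python 3.11.15, pandas 2.3.3, R 4.3.3 and bedtools 2.31.1.

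Members and lists were chosen with earlier results of these data known. Values per library are given for members not open in all 7 equal-size lists, past the adjusted p, without overlap of ranks, or with the best median rank of their role; HSPA9, TRAP1 and LONP1 were added after their values were seen. Alternatives changed list length, window, overlap rule, gene end, ranking, role assignment and libraries; the handling of ties and 1 run without the replicate block were chosen after seeing the data. The limma p-values weigh each difference against the spread between these libraries, estimated with information from all genes tested. Those of Fisher's test use only the counts of libraries with a region.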

Additional observations from a re-analysis of the deposited data

Results flagged for a closer look

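In the groups of 4 treated libraries, 4 of 37 values or counts examined had 1 library set far apart from the other 3 by Dixon's criterion, which chance alone would give for about 1 in 20 groups. TOMM6 had a log2(list length / rank) of 1.99 in treated 6 (rank 8279), with the other treated libraries at 1.25 to 1.28. TIMM50 had 2.27 in treated 8 (rank 6810), with the others at 0.83 to 1.00. In the deposited lists treated 9 had 34 members open and 10 chaperones and proteases open, with 35 and 11 in each other treated library; CLPP was the missing gene in both counts, so these are 1 event, and with every other library at the full count any single missing gene would stand apart in this way. The rate of 1 in 20 does not hold for such tied counts.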

How the results depend on the processing

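The number of members open in equal-size lists was higher in treated libraries by 1.33 to 3.08 members over 17 alternatives, and lists of 16414 regions gave 3.08. Since no treated count was below a vehicle count, leaving libraries out could not reverse this direction, and those runs say nothing about its stability. In deposited lists the difference was 0.75 to 3.58 over 14 alternatives, and −log10 q of at least 5 gave 3.58. The presence test called 0 genes under all 16 alternatives, which says nothing about stability, since its smallest p is too large at these group sizes. The import gain minus the chaperone and protease gain reversed to 6.25 percentage points without the 3 libraries of long lists, and ran from −13.6 to 1.70 when 1 library was left out, with 1.70 without vehicle 8. The limma test called 9 genes as reported, 3 with lists of 16414 regions, 1 with a window of 250 bp, 3 with the summit in the window, 5 with the gene start only, 5 without the 3 long lists, 5 with normal scores, and 1 to 6 with 1 library left out; 0 members passed in any of them, and the causes of these changes were not tested. With 1 library left out, fitted differences ran from −0.0055 to 0.73 for DNAJC19 and from −0.022 to 0.57 for TIMM17A (below 0 without vehicle 7), from −0.11 to 0.71 for TOMM70 (below 0 without treated 7) and from −0.44 to 0.12 for TIMM22 (above 0 without treated 9).

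Same-numbered differentiations had correlations of −0.12, 0.03 and −0.01 between their deviations over 9284 genes, so the numbers were not used as pairs in the main fit. The highest of any treated and vehicle pair was 0.28, treated 6 with vehicle 8, which both have long lists. Treated 7, whose list is also long, had −0.13 with vehicle 8, and the part of list length was not tested. With 3 same-numbered pairs, these values cannot show that shared batches are absent. With the replicate block limma called 12 genes, against 3 for the same 6 libraries with no block, and TIMM22 was 0.12 in both; the members' difference was 2.00 within pairs. Depth limits the weakest regions: a summit needed a pileup of 8, 14, 5 and 7 to be listed in treated 6 to 9 and 4, 5 and 6 in vehicle 6 to 8, and up to 9516 regions tied at the limit of an equal-size list.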
